A study of Mus musculus with 76 samples.

Results

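Cytosolic ribosomal protein genes encode the proteins of the ribosomes that translate cytoplasmic mRNAs. Members were chosen by gene symbol: Rpl or Rps followed by a digit, or Rplp0, Rplp1, Rplp2 and Rpsa, leaving out pseudogene symbols with -ps, the S6 kinases and Rps19bp1. This gave 89 of 18964 genes in the visceral white adipose tissue (WAT) table and 91 of 16775 in the liver table, of 20295 genes in either table. The rule used no measured value, but the family was picked with earlier results of these libraries known. Rps12l1 and Rps23rg1 were listed in liver alone.

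Each tissue came from female mice with free access to food and a standard chow diet. Fnip2 C/C mice carry, in every cell, a knock-in made in C57BL/6 embryos with Cas9, a guide and a repair oligonucleotide, which places the C allele in the Fnip2 3′UTR beside a change in the guide's PAM. Fnip2 T/T mice carry the mouse allele. Fnip2 encodes a folliculin partner that works upstream of the nutrient kinase complex mTORC1. WAT was sequenced from 4 C/C and 5 T/T mice and liver from 5 and 5, and 6 mice gave both tissues. The labels used here give no age for the sequenced mice. In WAT, C/C values are always given in the order of mice 590, 593, 599 and 638, and T/T values in the order of mice 607, 608, 609, 657 and 658. In liver the order is 590, 591, 592, 638 and 639 for C/C and 607, 608, 657, 658 and 659 for T/T.

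A ribosome has a small subunit, which decodes the mRNA, and a large subunit, which forms peptide bonds. Its proteins are needed in equal numbers, apart from the acidic stalk proteins, and most are made from short, abundant mRNAs that begin with a terminal oligopyrimidine (TOP) tract. That tract places their translation under mTORC1, through the repressors Larp1 and the 4E-BPs. The libraries measured mRNA and not its translation, and each value is a normalized count of reads at the 3′ end of a transcript, so levels are not divided by transcript length.

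The libraries held 4180209 to 4629269 reads in WAT C/C, 4336514 to 6277644 in WAT T/T, 6768458 to 7248863 in liver C/C and 5583041 to 7523200 in liver T/T. The edited gene itself was low in WAT, where Fnip2 had normalized counts of 24.7, 30.9, 21.7 and 14.1 in C/C and 33.6, 26.3, 14.5, 42.6 and 24.3 in T/T. In liver its mean was 155 ± 29.2 in C/C and 104 ± 33.2 in T/T (SD, n = 5 and 5). A 3′ tag does not show which allele was present. All 6 adipocyte markers were found in WAT and all 5 hepatocyte markers in liver. In WAT the summed adipocyte markers ran from 16029 to 48352 in C/C and from 52966 to 77602 in T/T, the endothelial ones from 1211 to 2260.5 and from 2284 to 3570, and the erythroid ones from 1001 to 1481 and from 7388 to 8999, without overlap. The 3 B lymphocyte markers listed, of 4, were low and higher in C/C, from 25.9 to 60.7 against 8.34 to 23.4, and the 3 hepatocyte markers listed, of 5, were low and lower in C/C, from 30.5 to 122 against 147 to 258, also without overlap. The summed macrophage markers overlapped, from 2449.9 to 5000.3 in C/C and from 2223 to 3650.3 in T/T. The WAT library of C/C mouse 593 held 20351 normalized counts over the 7 ovary markers listed, of 9 looked for, against at most 100.04 in any other WAT library. The part of these differences in the results below was not tested, and in bulk tissue fewer cells of a type and less RNA per cell cannot be told apart.

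In WAT, the ribosomal protein mRNAs did not move as a block: more members fell than rose in C/C. Of the 82 members whose normalized counts averaged 10 or more, 36 were lower in C/C and 13 were higher at an adjusted p under 0.05 (limma on log2 values, Benjamini-Hochberg over all 12798 genes tested). The members that fell were 43.9% of those tested, against 17.0% of all genes called lower, and those that rose were 15.9%, against 15.1% of all genes called higher. The median log2 fold change (C/C minus T/T) was -0.56 over the members and 0.02 over all genes. The quartiles of the members were -1.41 and 0.26, and the SD of the members' log2 fold changes was 1.27, against 0.88 over all genes. Libraries of the genotypes did not overlap for 28 members, 34.1% of those tested, against 26.1% of all genes. Of those 28, 17 were lower and 11 higher in C/C. Without mouse 593, 38 members were lower and 10 higher, and the median was -0.74.

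Both subunits held members of each direction. Of 32 small subunit genes tested, 18 were lower (56.2%, against 17.0% of all genes) and 3 were higher (9.38%, against 15.1%) in C/C. Their median log2 fold change was -1.01. Of 50 large subunit genes tested, 18 were lower (36.0%) and 10 were higher, with a median of -0.24. Both of these shares were above those over all genes, while the share of small subunit genes that rose was below. The large subunit median moved to -0.05 without mouse 638, to -0.43 without mouse 593 and to -0.02 with a minimum mean of 50. The difference between the subunits was not tested. With paralog copies left out, 17 of 30 small subunit and 17 of 45 large subunit genes were lower, and 3 and 9 were higher. The shares stayed on the same sides of those over all genes.

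**Figure D1:**
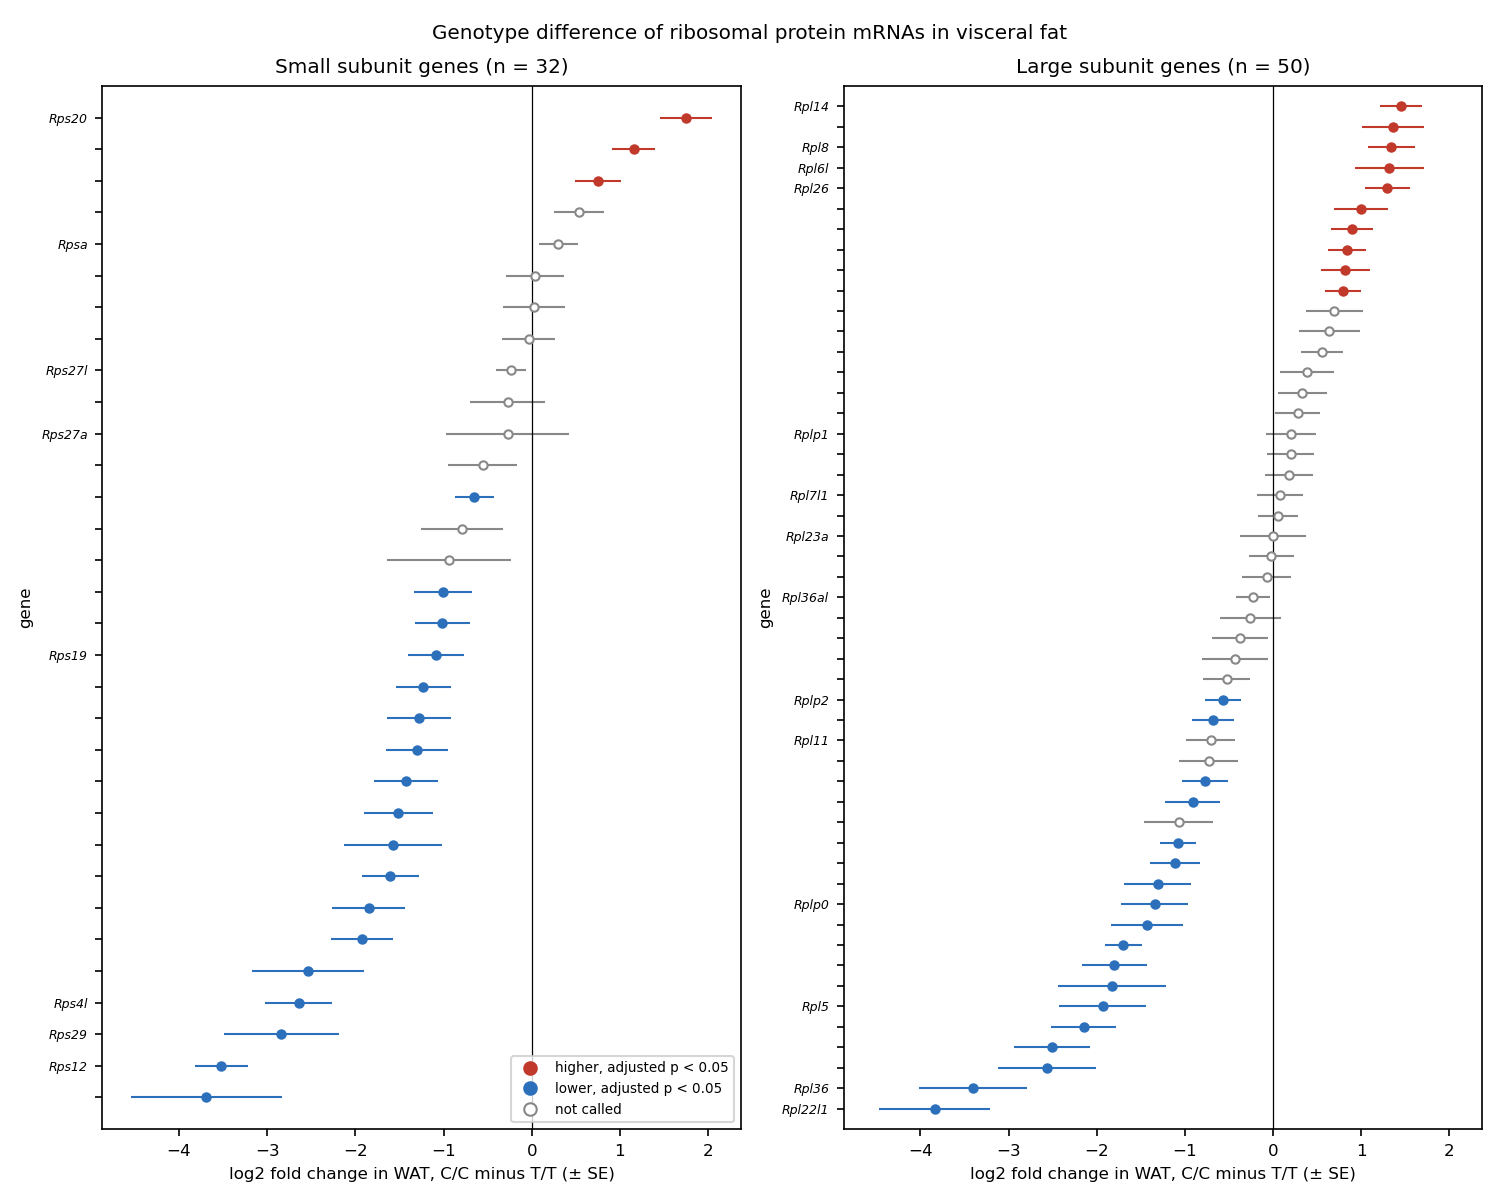
Log2 fold change of each tested ribosomal protein gene in WAT (C/C minus T/T, x axis, with its standard error as a bar), with 32 small subunit genes on the left and 50 large subunit genes on the right. Genes are ordered by size, and labels mark some of the members described in the text. Filled points passed an adjusted p of 0.05: 3 small and 10 large subunit genes lie to the right of 0, and 18 of each subunit lie to the left.

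The level of the members was read from T/T alone, since a mean over both genotypes moves with the change itself. This choice was made after seeing the data, and the T/T mean too is part of the difference. Among the 11 members with a T/T mean above 3000, 6 were higher in C/C, 2 were lower and 3 were not called, with a median log2 fold change of 0.75. Rpl32 and Rpl37 were those that fell, from T/T means of 3539 and 3468, and are named after their values were seen. Between 1000 and 3000, 10 of 18 members were lower and 0 were higher, between 100 and 1000, 15 of 30 were lower and 3 higher, and below 100, 9 of 23 were lower and 4 higher. By the mean over all WAT libraries, 9 members lay above 3000, of which 6 were higher and 0 were lower. The log2 scale gives low and high members the same weight, so these counts are not shares of RNA. Over all genes tested, whatever their level, 17.0% were lower and 15.1% were higher. Shares over all genes at each level were not computed, so this pattern is not shown to be particular to the members.

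Rps20, a protein of the small subunit head, had the largest rise of the tested members. Its normalized counts were 16299.8, 47031, 26349.9 and 31093 in C/C and 9007, 9495, 8685, 6146 and 9155 in T/T. The lowest C/C library lay above the highest T/T library, and mouse 593 was the highest. The means were 30194 ± 12808 and 8498 ± 1346 (SD, n = 4 and 5), with a log2 fold change of 1.74 ± 0.29 (SE) and an adjusted p of 0.00149. The exact two-sided permutation p was 0.0159, the smallest that regrouping 4 and 5 mice can give. The other members shown here for the largest changes share this p by construction, since they were chosen among those whose genotypes do not overlap.

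Rpl14, Rpl8 and Rpl26, core proteins of the large subunit, rose by similar amounts. Rpl14 had 6897, 13743, 9479 and 11242 in C/C and 3643, 4162, 3205, 3022 and 4581 in T/T, a log2 fold change of 1.45 ± 0.24 and an adjusted p of 0.00137. Rpl8, which lies close to the peptidyl transferase centre, had 7818, 18158, 9832 and 10661 in C/C and 3976, 5036, 4821, 3186 and 5097 in T/T, a log2 fold change of 1.34 and an adjusted p of 0.00311. Rpl26 had 5822, 13793, 9509 and 9090.4 in C/C and 3598, 3743, 4015, 2885 and 4588 in T/T, a log2 fold change of 1.29 and an adjusted p of 0.00312. In all of them mouse 590 had the lowest C/C value and mouse 593 the highest. Rpl6l, listed beside the core gene Rpl6, was far scarcer, with 87.03, 77.7, 79.1 and 163 in C/C and 40.2, 35.996, 14.5, 64.5 and 58.4 in T/T. Its log2 fold change was 1.32 (adjusted p = 0.0215), and without mouse 638 it was 1.07 and no longer passed. Rpl6 itself rose, from a mean of 648 ± 80.5 in T/T to 1201 ± 428 in C/C (SD, n = 5 and 4, adjusted p = 0.0117).

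The largest falls were in members of low or middling level. Rps12, a small subunit protein, had 34.1, 56.2, 32.5 and 14.1 in C/C and 414, 323, 332, 372 and 379.7 in T/T. The groups were far apart, and the T/T values lay close together. The log2 fold change was -3.52 ± 0.30 and the adjusted p was 1.26e-04. Rpl36, of the large subunit, had 10.6, 11.2, 5.42 and 0 in C/C and 74.7, 49.6, 69.2, 52.6 and 44.7 in T/T, a log2 fold change of -3.40 ± 0.62 and an adjusted p of 0.00209. Its C/C mean was under 10, so it was tested through its T/T level and its difference is partly fixed by the filter. Rps29, a small subunit protein with a zinc-binding motif, had 19.99, 109, 48.8 and 7.03 in C/C and 363, 149.8, 118, 294 and 279.6 in T/T, a log2 fold change of -2.84 and an adjusted p of 0.00833. For all of these mouse 638 was the lowest C/C library, and in Rps29 mice 608 and 609 were the lowest of the T/T libraries.

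**Figure D2:**
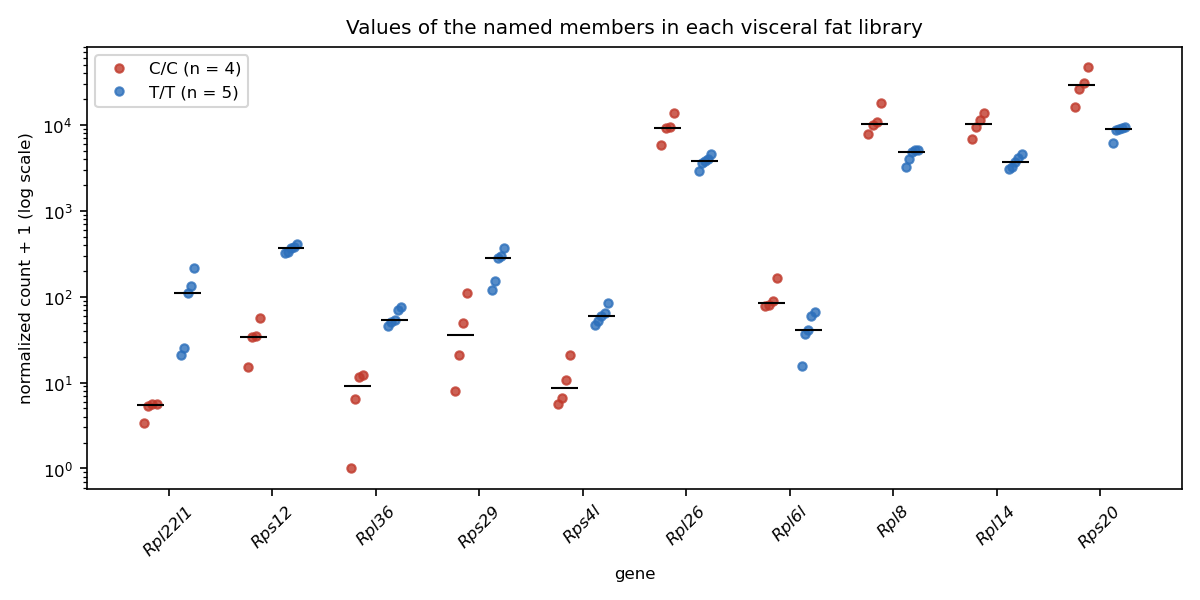
Normalized count plus 1 (log scale, y axis) in each WAT library for the 5 members with the largest falls and the 5 with the largest rises among called members whose genotypes do not overlap. Each point is 1 mouse (4 C/C, 5 T/T) and the line is the group median; counts of Rps12 are at most 56.2 in C/C and at least 323 in T/T, and those of Rps20 at least 16299.8 in C/C and at most 9495 in T/T.

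Paralog copies were set beside the core gene they resemble. Rpl22l1, a paralog of Rpl22, had the largest fall of any tested member, with 2.35, 4.68, 4.34 and 4.69 in C/C and 131, 24.3, 20.1, 109 and 215 in T/T. Mice 608 and 609 were again the lowest T/T libraries. The log2 fold change was -3.84 ± 0.63 (adjusted p = 0.00142). Rpl22l1 averaged under 10 in C/C, so it passed the minimum mean through T/T, and this difference is partly fixed by the filter. Rpl22 fell less, with 936, 1539.5, 981 and 576 in C/C and 1832, 1409.7, 1293, 1662 and 2049 in T/T and a log2 fold change of -0.77 (adjusted p = 0.0364). Rps4l had 19.99, 5.62, 9.76 and 4.69 in C/C and 58.3, 50.6, 45.8, 63.5 and 82.6 in T/T, with a log2 fold change of -2.64 (adjusted p = 8.04e-04). The core gene Rps4x fell beside it, from 207 ± 21.6 in T/T to 62.5 ± 36.7 in C/C (SD, n = 5 and 4), with an adjusted p of 0.00218. Both pairs moved the same way in WAT, and whether a copy differed from its core gene was not tested.

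Other copies were not called. Rpl7l1 had a log2 fold change of 0.08 ± 0.27 beside 0.20 ± 0.27 for Rpl7. Rps27l, a paralog of Rps27, had 347, 463, 397 and 314 in C/C and 439.8, 387, 412, 478 and 513 in T/T, a log2 fold change of -0.24 ± 0.17. Rps27 itself had -0.79 ± 0.46. Rpl36al had -0.23 ± 0.19, while Rpl36a fell from 109 ± 20.3 in T/T to 50.9997 ± 6.60 in C/C (SD, n = 5 and 4, adjusted p = 0.00248). Rpl3l and Rps27rt were below the minimum mean. Rpl3l had 0, 0.936, 0 and 0 in C/C and 1.64, 0.973, 29.02, 0 and 1.52 in T/T, so mouse 609 alone carried its level. Rps27rt had 2.35, 4.68, 3.25 and 0 in C/C and 27.1, 0, 2.23, 7.93 and 42.4 in T/T.

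Among members chosen for their role, the acidic stalk, which recruits the GTPase factors of translation, was uneven. Rplp0, the base of the stalk, had 744, 903, 516 and 171 in C/C and 1241, 1431, 1192, 1255 and 1160.3 in T/T, with no overlap. It fell by a log2 fold change of -1.34 (adjusted p = 0.0185). Rplp2 had 473, 456, 369 and 293 in C/C and 527, 558, 439.8, 722 and 703 in T/T, a log2 fold change of -0.57 ± 0.21 with an adjusted p of 0.0496, a call lost in 8 of 19 alternatives. Rplp1, the most abundant member in T/T fat, had 14645, 25444, 15043 and 9507 in C/C and 12188, 16232, 10949, 11874 and 15376 in T/T. Its groups overlapped, with a log2 fold change of 0.21 ± 0.28 and an adjusted p of 0.598.

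Rpl5 and Rpl11 join 5S rRNA in a particle that also binds Mdm2. Rpl5 had 17.6, 65.5, 31.4 and 15.2 in C/C and 181, 48.6, 62.5, 119 and 218 in T/T, a log2 fold change of -1.93 ± 0.50 and an adjusted p of 0.0118. Mice 608 and 609 lay within the C/C range. Rpl11 had 123, 201, 129 and 79.6 in C/C and 268, 137, 162, 237 and 271 in T/T, a log2 fold change of -0.71 ± 0.28 and an adjusted p of 0.0684, and it passed in 3 alternatives. Rps19, a gene of Diamond-Blackfan anaemia, fell, with 599.8, 1037, 627 and 253 in C/C and 1280.1, 1018, 1288, 1025 and 1383 in T/T. Its log2 fold change was -1.08 (adjusted p = 0.0203), and only mouse 593 reached the T/T range. Rpsa, which is also known as the laminin receptor precursor, had 1534, 2653, 1796 and 1334 in C/C and 1237, 1724, 1443, 1186 and 1654 in T/T, a log2 fold change of 0.30 ± 0.22 and an adjusted p of 0.321. Rps27a, made as a fusion with ubiquitin, had 7.06, 14.04, 23.8 and 17.6 in C/C and 48.4, 8.76, 4.47, 10.9 and 69.7 in T/T, and mice 607 and 658 stood far above the other T/T libraries.

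Rps6, the substrate that gives the S6 kinases their name, was almost uncounted in both tissues. It had 1.18, 0, 0 and 0 in WAT C/C, 3.28, 2.92, 0, 2.97 and 4.55 in WAT T/T, and at most 4.78 in any liver library. No library of either tissue held more than 6 reads of it. Its 1 pseudogene entry in WAT averaged 5.64 and its 3 entries in liver together averaged 23.0. Rpl27 was similar, with a mean of 2.33 in WAT and 7.88 in liver. Both are core proteins of every ribosome, so for them these values are no measure of the mRNA level, and no fold change is given.

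Reads that match several copies are a limit of the family as a whole. The tables also list 136 entries named as pseudogenes of ribosomal proteins in WAT and 146 in liver. Summed per parent gene, these entries were above the parent itself for 8 of 52 members in WAT and 10 of 52 in liver. The widest case within WAT was Rps13, with a mean of 273 beside 2331 over its 3 entries. The same gene in liver had a mean of 143 beside 1974 over its 4 entries. For Rpl36 the 5 entries in WAT averaged 130 ± 71.8 in C/C and 205 ± 26.8 in T/T (SD, n = 4 and 5). Members with such copies are therefore uncertain in level. Of 36 pseudogene entries tested in WAT, 11 were lower (30.6%, against 17.0% of all genes) and 4 higher (11.1%, against 15.1%) in C/C, with a median log2 fold change of -0.86.

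In WAT, 7 members were below the minimum mean: Rps6, Rpl27, Rps3a3, Rpl3l, Rps3a2, Rpl32l and Rps27rt. The first below it was Rps27rt, with a mean of 9.997, and the first above it was Rpl28, with 16.2. In 5 tested members, Rpl22l1, Rps2, Rpl36, Rpl29 and Rpl7a, C/C averaged under 10, so they passed through their T/T level and their difference is partly fixed by the filter. Of members averaging at least 10 in both genotypes, 31 were lower and 13 were higher. The shares over all genes under that stricter minimum were not computed, so these counts have no comparison.

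The make-up of the ribosomal protein reads can be read within each library, without any scaling between libraries. Members took 2.05 to 5.03% of all WAT reads in C/C, with the highest value in mouse 593 and a median of 2.49%, and 1.72 to 2.54% in T/T. Rps20 alone took 15.7%, 21.6%, 20.9% and 27.1% of the members' reads in C/C. It took 8.87%, 9.49%, 10.3%, 6.81% and 7.58% in T/T, so the groups did not overlap. The 95% Wilson intervals were narrow, for example 26.8 to 27.4% in mouse 638 and 6.65 to 6.97% in mouse 657, and cover counting error only. The 5 leading members together held 49.6 to 62.3% of the members' reads in C/C and 32.2 to 40.2% in T/T. It took 4 to 6 genes to reach 50% of the members' reads in C/C and 8 to 11 in T/T.

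Small subunit genes held 42.2 to 46.5% of the members' reads in C/C and 39.8 to 42.3% in T/T, which overlap. With Rps20 set aside, the order turned: 26.7 to 31.4% in C/C and 32.9 to 38.1% in T/T, without overlap. Rps20 was set aside after its rise in these libraries was seen, and large subunit members that rose were kept. Leaving it out lowers the C/C share more than the T/T share by construction, so the turned order is a description. In liver the same share without Rps20 was 38.6 to 40.3% in C/C and 35.8 to 40.7% in T/T.

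**Figure D3:**
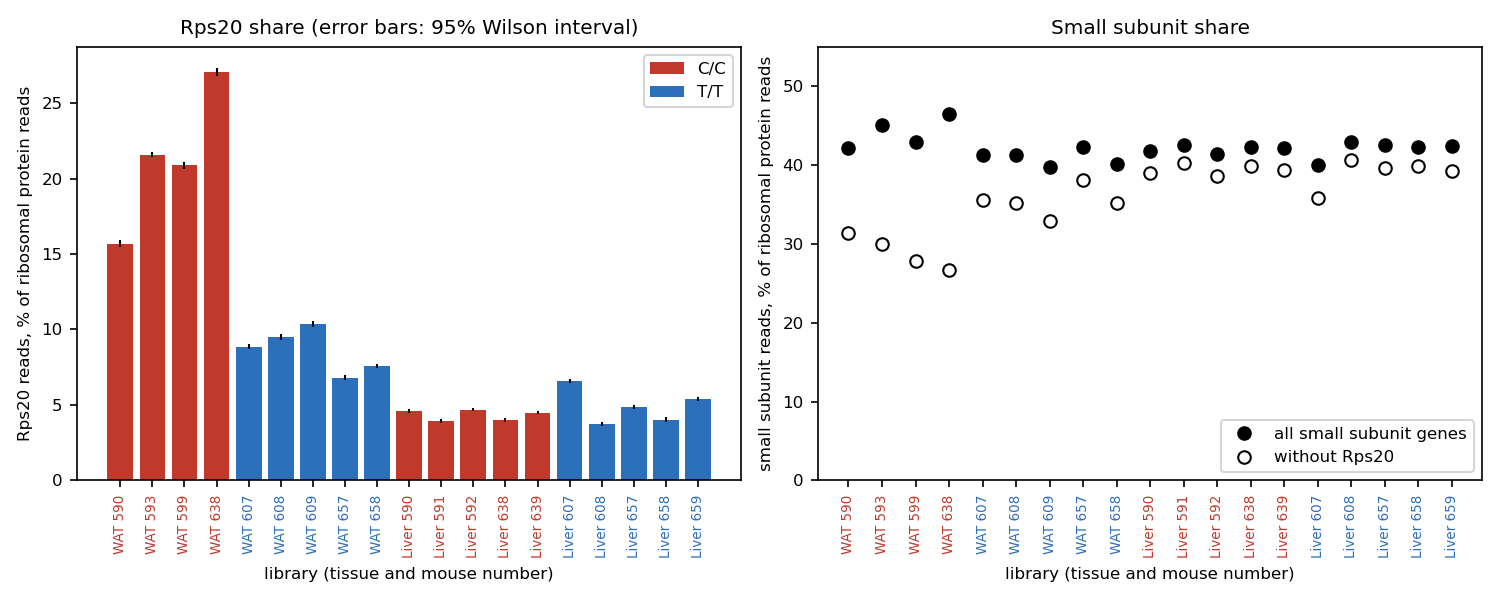
Left, reads of Rps20 as a percentage of all ribosomal protein reads in each of the 19 libraries, with 95% Wilson intervals: 15.7 to 27.1% in the 4 C/C fat libraries and at most 10.3% in the others. Right, small subunit reads as a percentage of ribosomal protein reads, with all small subunit genes (filled) and without Rps20 (open), where the C/C fat libraries lie between 26.7 and 31.4%.

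The members also varied more between C/C than between T/T fat libraries. The median SD of a member's log2 value was 0.63 in C/C and 0.36 in T/T, against 0.43 and 0.34 over all genes tested. In liver it was 0.23 and 0.26, against 0.26 and 0.29. Across the tested members of 1 library, the SD of log2 levels was 2.92 to 3.15 in C/C fat and 2.20 to 2.62 in T/T fat, and 2.00 to 2.13 in all liver libraries.

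In liver, no difference between the genotypes passed for any member. Of 86 members tested, 0 were called, as for all 11710 genes tested (0.0%), and edgeR and DESeq2 on the recovered reads also called 0. At an unadjusted p under 0.05, limma gave 1 member, against 1.97% of all genes, and edgeR and DESeq2 gave 1 each. The members' log2 fold changes ran from -0.36 to 0.81, with a median of -0.01, 0.02 for 35 small and -0.04 for 51 large subunit genes.

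The member with the lowest p in liver was Rpl23a, a large subunit protein, with 189, 189, 211, 150.03 and 209 in C/C and 139, 118, 209.7, 124 and 139 in T/T. The groups overlapped through mouse 657, the only T/T library above the lowest C/C one. Its log2 fold change was 0.40 ± 0.16, with an unadjusted p of 0.0216, an adjusted p of 0.99997 in limma and an exact permutation p of 0.0714. Rps23rg1, a retrocopy of Rps23, had 43.3, 20.8, 32.8, 38.3 and 57.02 in C/C and 49.9998, 23.9, 9.75, 17.6 and 26.9 in T/T, a log2 fold change of 0.68 ± 0.36. Rpl36 had 101, 90.5, 119, 132 and 147 in C/C and 118, 86.98, 117, 88.9 and 45.5 in T/T, a log2 fold change of 0.42 ± 0.23. The direction of that value is opposite to the one in WAT, but it was within the spread between liver libraries.

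The genotype difference was larger in WAT than in liver for most members, as it was for most genes. Over the 82 members tested in both, the median absolute log2 fold change was 0.92 in WAT and 0.07 in liver, and it was larger in WAT for 75 (91.5%). Over all 10404 genes tested in both, it was 0.52 in WAT and 0.10 in liver, and larger in WAT for 86.0%. The test of the difference itself, an interaction term fitted over 19 libraries and 10404 genes, passed for 42 of 82 members, or 51.2%, against 29.2% of all genes. It passed for 18 of 32 small and 24 of 50 large subunit genes. In 31 members (37.8%, against 17.7% of all genes) the WAT difference lay below the liver one. In 11 members (13.4%, against 11.5% of all genes) it lay above. The 10 members shown for the largest changes in WAT were chosen for that change, which makes up most of the interaction value, so theirs are a description: the WAT log2 fold change minus the liver one was -3.51 ± 0.43 (SE) for Rps12 and 1.93 ± 0.36 for Rps20.

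In liver, Rps12 had 169, 176, 315, 329 and 408 in C/C and 308, 161, 366, 232 and 308 in T/T, and Rpl22l1 had 223, 213, 222, 212 and 223 and 218, 278, 196, 223 and 139. Both genes overlapped between genotypes in liver. Their separation in WAT was a condition for naming them. Rps20 had 3962, 2966, 4729, 3916 and 4653 in C/C and 6828, 3012, 5215, 3621 and 5030.1 in T/T in liver. The tables were normalized separately, so counts of the tissues are not set against each other.

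**Figure D4:**
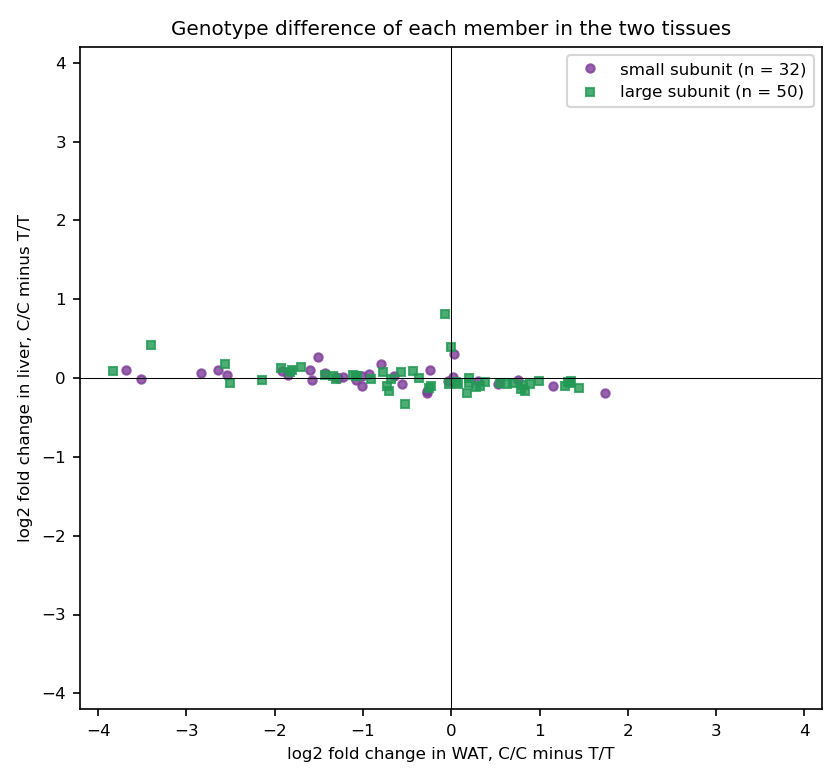
Log2 fold change of each of the 82 members tested in both tissues (C/C minus T/T), WAT on the x axis and liver on the y axis at the same scale, with small subunit genes as circles and large subunit genes as squares. Points spread from -3.84 to 1.74 along the WAT axis and stay between -0.36 and 0.81 along the liver axis.

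Some ribosomal proteins carry other names, since they are fused to or named for something else. Fau, a ubiquitin-like fusion that yields a small subunit protein, had 2633, 3929.7, 3474 and 4101 in C/C and 1321, 1244, 787, 1429 and 1267 in T/T, without overlap. Its log2 fold change was 1.55 ± 0.22, with an adjusted p of 7.97e-04. Rack1, a scaffold on the small subunit, had 1661, 2477, 1206 and 461 in C/C and 2363, 2780.5, 1852, 2551 and 2756 in T/T, a log2 fold change of -0.98 ± 0.38 and an adjusted p of 0.0645. In liver the log2 fold changes were 0.05 ± 0.13 for Fau and 0.03 ± 0.13 for Rack1.

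Of 13 translation factors and related genes tested in WAT, 3 were higher and 3 lower (23.1% each, against 15.1% and 17.0% of all genes), with a median log2 fold change of 0.31. Eif3e, a subunit of initiation factor 3, fell from 294 ± 115 in T/T to 57.1 ± 21.6 in C/C (SD, n = 5 and 4, adjusted p = 7.91e-04). Btf3, of the nascent polypeptide-associated complex, fell from 66.2 ± 24.2 to 14.2 ± 7.03 (adjusted p = 0.00154). Eef2, the factor that moves the ribosome along the mRNA, rose from 4827 ± 310.1 to 10365 ± 2635 (adjusted p = 0.00330). The libraries of the genotypes did not overlap for these genes.

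Of 31 ribosome biogenesis genes tested in WAT, 9 were higher (29.0%, against 15.1% of all genes) and 4 lower (12.9%, against 17.0%), with a median log2 fold change of 0.06. Dkc1, the pseudouridine synthase of H/ACA particles, rose from 427 ± 82.1 in T/T to 1167 ± 324 in C/C (SD, n = 5 and 4, adjusted p = 0.00117). Nhp2, of the same particles, rose from 191 ± 37.2 to 482 ± 213 (adjusted p = 0.00302), and Wdr43, of the small subunit processome, from 491 ± 78.3 to 1206 ± 267 (adjusted p = 0.00106). Of 12 genes that regulate TOP mRNAs, 1 was higher and 1 lower, or 8.33% each, below the shares over all genes. Rheb, the GTPase that activates mTORC1, fell from 137 ± 17.4 to 52.2 ± 22.02 (adjusted p = 0.00326). Tsc2, part of the complex that switches Rheb off, rose from 173 ± 33.6 to 269.6 ± 60.3 (adjusted p = 0.0313). Eif4ebp1 had 592 ± 73.9 in T/T and 429 ± 133 in C/C (adjusted p = 0.0813). In liver, 0 genes of these lists were called by limma. At an unadjusted p under 0.05 there were 0 of 13 translation factors, 1 of 33 biogenesis genes and 2 of 12 regulators. The share over all genes tested in liver was 1.97%.

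The start sites of a few members are shown because TOP mRNAs are defined by their first bases. Each line gives 30 bases, 15 on each side of the annotated start, from the RefSeq promoter table (build GRCm38.p6, not the build of the counts). Capitals mark a C followed by at least 4 bases that are each C or T, with the C within 5 bases of the start on the gene's strand.
Rpl14 (chr9:120571502-120571531, plus strand): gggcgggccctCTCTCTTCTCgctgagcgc
Rpl26 (chr11:68901551-68901580, plus strand): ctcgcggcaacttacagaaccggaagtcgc
Rplp2 (chr7:141447636-141447665, plus strand): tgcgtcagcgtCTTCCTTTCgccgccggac
Rpl22l1 (chr3:28805493-28805522, plus strand): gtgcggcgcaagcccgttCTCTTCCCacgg
Rps12 (chr10:23787195-23787224, minus strand): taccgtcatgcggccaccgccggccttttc
Rps6 (chr4:86857353-86857382, minus strand): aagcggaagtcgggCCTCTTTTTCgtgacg
Rpl14 and Rpl26 rose in WAT, Rplp2, Rpl22l1 and Rps12 fell, and Rps6 was at the floor. A run was found in members of both directions and missed in members of both. Of 91 members, 66 had a window, and 32 of these (48.5%) held such a run, against 21.2% of all 27025 genes with a window. It was found in 4 of 7 members called higher, in 12 of 26 called lower and in 12 of 27 tested and not called. The complementary strand was not searched, runs can overlap one another, and an annotated start can lie some bases from the one a tissue uses.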

How the data were processed

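RNA of WAT and liver was made into QuantSeq 3′ libraries (oligo-dT primed, stranded, 500 ng of WAT RNA and 250 ng of liver RNA). Each mouse has 4 run samples in the labels (76 in all) and 1 column in a table. The deposited signal values are gene counts that the authors divided by a size factor per library. The submitters' processing notes name FastQC 0.11.9, HISAT2, SAMtools 1.12, HTSeq, DESeq2 and GRCm39; how reads matching several places were treated is not given in the sources used here. Dividing each column by its smallest value gave whole reads for all values (tolerance 1e-06). Of the WAT columns, 1 carries no label and was not used.

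Values were tested as log2(value + 1), so that folds of low genes are understated, for genes with a mean of at least 10 in a tissue, with limma 3.58.1 (trend, robust) in R 4.3.3 and Benjamini-Hochberg adjustment over all genes tested. A call needed an adjusted p under 0.05. Single genes also had an exact two-sided permutation test (scipy 1.17.1; 126 groupings in WAT, 252 in liver). The mice are separate animals of a group. edgeR 4.0.16 and DESeq2 1.42.0 were run on the recovered reads. The limma and edgeR tests within each tissue and the limma interaction were tried on simulated data. The other fits and the permutation test were not part of that trial. Intervals are 95% Wilson intervals and cover counting error only, as the libraries carry no molecular identifiers.

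Members and lists were chosen with earlier results of these data known. Named members were the 5 largest rises and 5 largest falls among called members without overlap in WAT, the 3 lowest p in liver, members by role, paralog copies, the 3 lowest p of each related list, and those at the filter. Some genes are not reported here. Mouse numbers pair the tissues of 6 mice; their deviations from the group means had correlations of -0.203 to 0.156 between tissues.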

Additional observations from a re-analysis of the deposited data

Results flagged for a closer look

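For each of the 10 members with the largest changes in WAT without overlap, the genotype difference passed the interaction test between the tissues. These genes were chosen for their WAT change, which makes up most of the value, so this is a description, and Rpl22l1 and Rpl36 passed the minimum mean through T/T. The WAT log2 fold change minus the liver one was -3.92 for Rpl22l1, -3.51 for Rps12, -3.82 for Rpl36, -2.90 for Rps29 and -2.74 for Rps4l. It was 1.93 for Rps20, 1.57 for Rpl14, 1.41 for Rpl8, 1.37 for Rpl6l and 1.39 for Rpl26.

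In 6 of 90 groups of 4 or 5 libraries looked at, 1 library stood apart from the others by Dixon's criterion, which marks about 5% of groups by chance. In WAT, Rpl22l1 was lowest in C/C mouse 590, at 2.35 normalized counts, or 2 reads. The other C/C libraries had at most 4.69, so all of them were near the floor. Rpl6l was highest in C/C mouse 638, at 163, and Rps20 was lowest in T/T mouse 657, at 6146. In liver, Rplp0 was lowest in C/C mouse 591, at 924, and highest in T/T mouse 657, at 1535. The small subunit share of the members' reads was lowest in liver T/T mouse 607, at 39.998%.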

How the results depend on the processing

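The alternatives were pseudocounts of 0.5 and 10, no minimum and a minimum mean of 50, equal read totals, size factors without the ribosomal protein genes, edgeR, DESeq2, library weights, a covariate splitting mice numbered below 610 from those above 630, and each mouse left out. In WAT, members called higher ranged from 11 to 15 and members called lower from 32 to 40, and from 10 to 13 and 27 to 38 when 1 mouse was left out, against 13 and 36. Calls over all 12798 genes moved as well. They were 1523 higher and 2369 lower with equal read totals, and 2334 and 2468 with library weights, against 1930 and 2181. Without mouse 638 they were 1350 and 1689 of 12772. The WAT median log2 fold change of the members ranged from -0.70 to -0.51, or -0.74 to -0.42 with 1 mouse left out, the extremes being without mouse 593 and mouse 638. In liver 0 members were called under every one of these. The interaction gave 39 to 52 members, or 34 to 49 with 1 mouse left out, against 42. With the mouse as a replicate block, which pairs the tissues of 6 mice, it gave 39, all among the 42. Over all 10404 genes, the interaction called 1193 higher and 1840 lower. With library weights it called 1411 and 2072, and with the mouse block 1062 and 1691. No called member of any of these settings turned its direction against the reported call. Of 455 values of 24 named genes under the alternatives, 443 kept their side of the threshold, 9 lost their call, all Rplp2 or Rpl6l, 3 gained one, all Rpl11 in WAT, and 0 reversed. The cause was not tested. Of these 24 genes, 10 were chosen as called members with large WAT changes, so the calls they kept are partly fixed by that choice. Depth limits members near the floor such as Rps6 and Rpl27.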
